A study of Mus musculus with 5 samples.

Results

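A group of 5 genes of the C-type natriuretic peptide pathway were followed across the cell types of the neonatal mouse growth plate, 5 of the 29818 genes counted. They were taken by name: Nppc (the peptide), Npr2 and Npr3 (its receptors), and Prkg1 and Prkg2 (the cGMP-dependent protein kinases). C-type natriuretic peptide, cut from the Nppc precursor, binds NPR2, a receptor of the cell membrane whose inner part makes cGMP. NPR3 binds the same peptide, lacks the cyclase and takes the peptide up, so it acts as a clearance receptor. In growth plate cartilage cGMP works largely through the kinase encoded by Prkg2, which restrains FGFR3 and MAP kinase signaling and lets chondrocytes enlarge, while the kinase encoded by Prkg1 is best known from smooth muscle. Loss of Nppc, Npr2 or Prkg2 is known to cause dwarfism in mice, and loss of Npr3 causes skeletal overgrowth.

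The cells came from knee joint growth plates of 5 littermate pups labelled C57BL/6J, given as postnatal day 3 in the series design and day 5 in the sample labels. Of these, 2 were labelled WT, and 3 were labelled mutant, that is Col2a1-Cre driven Trpv4 p.R594H, a conditional knock-in of 1 Trpv4 allele that Cre recombines in cells that express or expressed Col2a1, the type II procollagen gene of cartilage. The Cre line began on a mixed B6SJL background and was then crossed to C57BL/6J. Each pup was 1 single-cell library, so the pup was the replicate. The knock-in changes 1 residue of a calcium channel, and UMI counts per gene do not tell the alleles apart, so the genotype rests on the labels.

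The peptides are made as precursors whose end holds a ring closed by 2 cysteines, and this ring is what the receptors bind. The coding bases of the ring are shown to place Nppc beside its sister gene Nppb, whose peptide acts through another receptor, NPR1. They were read from GENCODE M21 transcripts of GRCm38, 5′ to 3′ on the coding strand, with the cysteine codons in capitals.
Nppc, codons 110 to 126 of 126, chr1:86669667-86669717, minus strand: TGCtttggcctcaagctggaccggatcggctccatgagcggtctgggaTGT
Nppb, codons 99 to 115 of 121, chr4:147986464-147986514, plus strand: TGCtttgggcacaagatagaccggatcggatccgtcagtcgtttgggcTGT
Each ring spans 17 codons. The Nppc precursor ends with the second cysteine, while the Nppb precursor goes on past it. Nppc and Nppb shared the meaning of 13 of 17 codons. In the libraries Nppb had 425 UMIs in all cells, against 3945 for Nppc.

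On GRCm38 Nppc lies on the minus strand of chromosome 1 (86666291 to 86670571), Npr2 on the plus strand of chromosome 4 (43631935 to 43651244), Npr3 on the minus strand of chromosome 15 (11839896 to 11907287), Prkg1 on the minus strand of chromosome 19 (30564489 to 31765033) and Prkg2 on the minus strand of chromosome 5 (98929773 to 99037351). The antisense gene Gm12473 overlaps Npr2, the gene Gm5144 on the plus strand overlaps Npr3, and the gene Cstf2t lies inside Prkg1. Each was counted on its own, and how the counting handled strand at these places is not given in the sources used here. UMIs were counted per gene, so the isoforms of Prkg1 could not be separated.

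After filtering, 82516 of 84382 cells were kept, 13814 to 19133 per pup, with a median of 6000 to 9261 UMIs per cell. The cells fell into 37 clusters, built without the 5 genes and the other genes of the pathway, and 29 clusters were named from marker genes. None of these clusters was named hypertrophic, and the cluster led by Col10a1, Ihh and Pth1r was named prehypertrophic. The remaining 8 clusters, with 22501 cells, stayed unnamed and are given by their leading genes. In the mutant pups 1 and 2, 89.8% and 88.4% of cells had a UMI of Xist and under 1% one of the Y-linked gene Ddx3y. The WT pups and mutant pup 3 had the reverse, 0.109% to 0.174% with Xist and 66.3% to 70.1% with Ddx3y, so sex and genotype label were partly mixed. The libraries shared 56 of 84326 cell barcodes, and Col2a1 had a UMI in 97.7% to 99.8% of cells of a pup, macrophages and red cells included, so free RNA reached every cell type. Macrophages are therefore given as the background for each gene.

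The members of the pathway differed in where they were highest, with some overlap. Nppc was highest in skeletal muscle cells and in 1 perichondrial cluster, outside the cartilage columns. Npr2 was spread through all chondrocyte classes and the fibrous tissues around them. Npr3 was scarce and highest in Schwann cells, pericytes, endothelial cells and the same perichondrial cluster. Prkg1 was broad, with its peak in pericytes. Prkg2 lay mainly in part of the proliferating cells and in the prehypertrophic cluster, which held 35.8% (prehypertrophic), 34.7% and 7.99% (the proliferating clusters led by H2-DMa and by Ccnb1) of all 40888 Prkg2 UMIs. A further 5.78% and 7.22% lay in the unnamed clusters led by Bmp7 and by Sfrp5. Levels are given as CPM, the UMIs of a gene in the cells of a class scaled to the same total of UMIs in every class and pup.

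**Figure D1:**
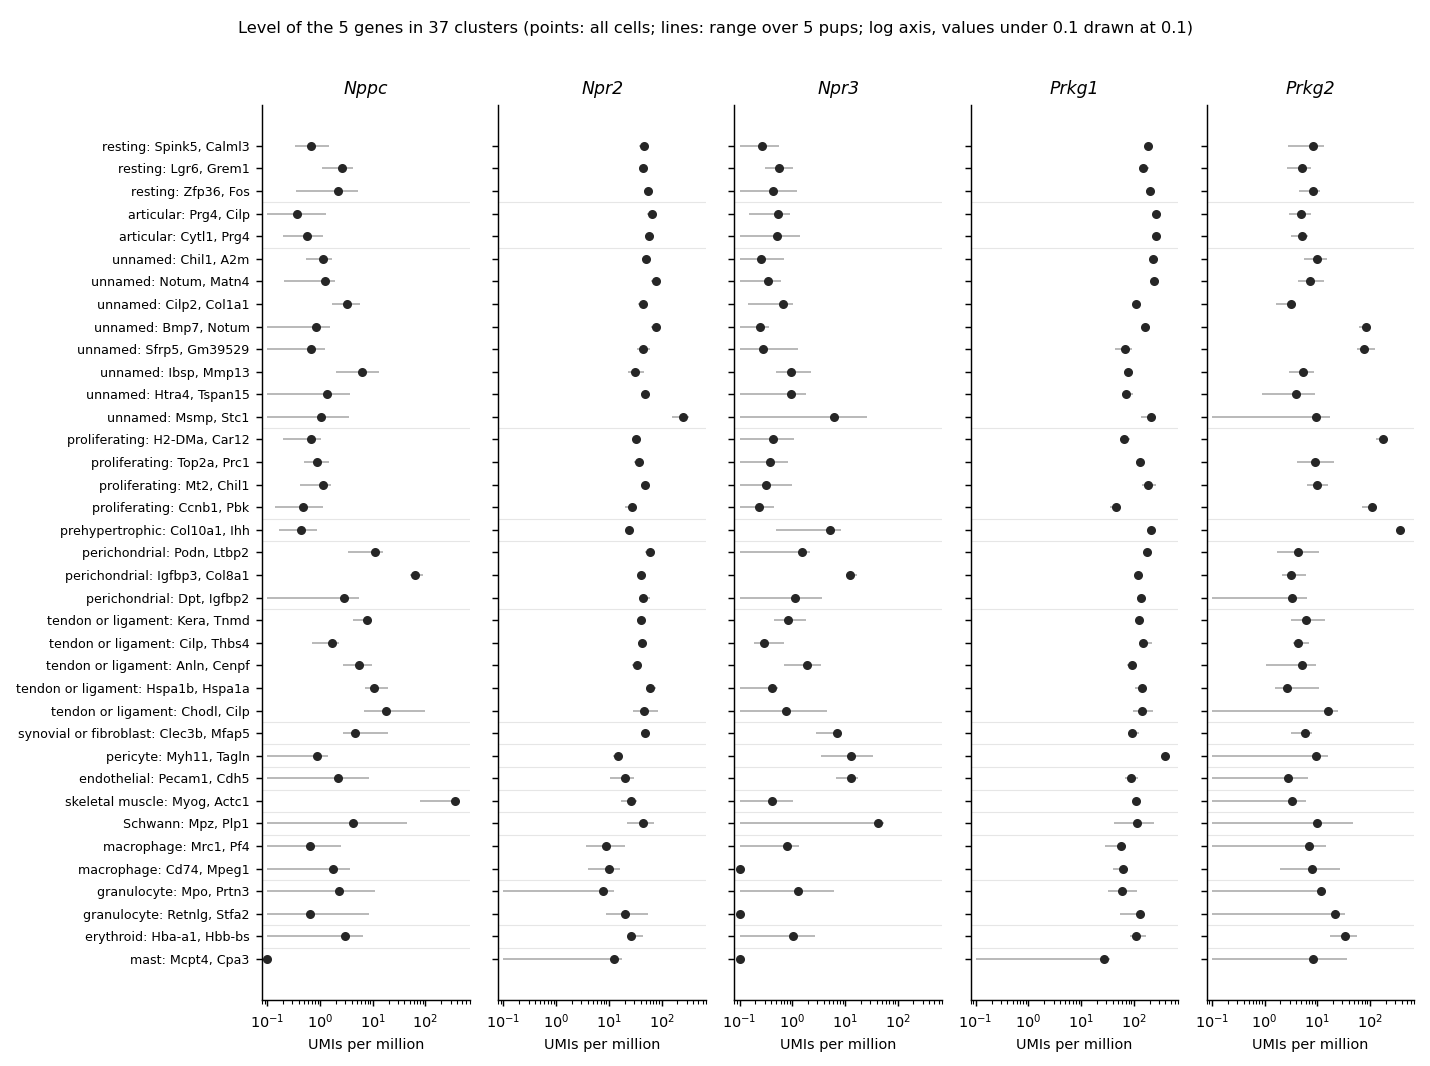
Level of each of the 5 genes (CPM, log axis) in the 37 clusters, with points pooled over the 5 pups and lines from the lowest to the highest pup. Prkg2 stands out in the prehypertrophic cluster (374) and Nppc in the muscle cluster (363) and in the perichondrial cluster led by Igfbp3 (64.8), while Npr2 and Prkg1 are present in most clusters.

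The ligand gene came first. Nppc was a perichondrial transcript among the skeletal cells and stayed near the background in every chondrocyte class. In perichondrial cells Nppc was at 32.5 and 40.2 in the WT pups and 29.3, 30.2 and 24.98 in the mutant pups, in CPM. Resting chondrocytes are the reserve cells at the top of the growth plate, and 3037 of the 11416 named so were a cluster led by immediate early genes (Zfp36, Fos, Egr1). The markers of that cluster scored best as proliferating, and it took the resting name after the proliferating one was turned down. Nppc in resting cells was at 1.25 and 1.95 in the WT pups and 2.48, 1.57 and 2.04 in the mutant pups. Macrophages had 1.12 and 1.95 in the WT pups and 0, 1.72 and 0 in the mutant pups, so the resting values overlapped this background and the perichondrial values were above both in every pup. Tendon or ligament cells lay between, with 5.03 to 7.77 over the 5 pups. Pooled over pups, proliferating, articular and prehypertrophic chondrocytes were at 0.725, 0.451 and 0.435, values that were not separable from macrophages (1.08).

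Within the perichondrial class Nppc sat mainly in 1 of 3 clusters, the one led by Igfbp3, Col8a1 and Epha3 with 2948 cells. Its level there was 90.6 and 75.5 in the WT pups and 52.9, 59.4 and 50.7 in the mutant pups. This cluster alone held 35.8% of all Nppc UMIs, and 22.3% of its cells had one. The perichondrial cluster led by Podn was at 11.3 and the third, led by Dpt, was at 2.90. Even in the Igfbp3 cluster expression was uneven from cell to cell, since 2290 cells had no Nppc UMI and 62 cells with 5 or more UMIs held 33.5% of the cluster's total, with at most 29 in a cell. In a sample thinned to 3000 UMIs per cell, 5.96 ± 1.06% of perichondrial cells had an Nppc UMI (mean ± SD, n = 5 pups), against 1.40 ± 0.316% of tendon or ligament cells, 0.418 ± 0.178% of resting chondrocytes and 0.292 ± 0.304% of macrophages. Without thinning the perichondrial share was 10.3%, at a median of 5845 UMIs per cell against 7589 in macrophages.

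The highest Nppc level was in skeletal muscle cells, a small population carried along with the joint tissue and led by Myog, Actc1 and Pax7. In CPM it was 78.3 and 389 in the WT pups and 394, 113 and 408 in the mutant pups, from 11, 117, 173, 32 and 78 cells. All 5 pups were above the background, and the pups with the fewest muscle cells were the lowest. Of the 411 muscle cells 234 had no Nppc UMI, while 58 cells with 5 or more held 73.6% of the UMIs. The class was too small in 1 WT pup for a test.

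Classes were compared within pups by edgeR's quasi-likelihood test with the pup as a block, and adjusted p-values are over all 15513 genes of a contrast (Benjamini-Hochberg). So many genes differ between cell types that a call by itself says little, and the share of all genes called is given with the first count of each contrast. Against resting chondrocytes, Nppc was higher in perichondrial cells (log2 fold change 4.07, SE 0.19, adjusted p = 2.5e-16) and in tendon or ligament cells (log2 fold change 1.72, SE 0.21, adjusted p = 5.5e-08). It was lower in proliferating (log2 fold change -1.52, SE 0.27, adjusted p = 1.6e-05), articular (log2 fold change -2.21, SE 0.39, adjusted p = 3.5e-05) and prehypertrophic chondrocytes (log2 fold change -2.24, SE 0.44, adjusted p = 4.7e-05), where both sides of the contrast were close to the macrophage level. These 3 lower values turned in sign and lost the call with finer clusters (0.72, 0.19 and 0.23). The resting class was then the clusters led by Calml3 (2353 cells) and by Spink5 (731 cells). The perichondrial and tendon or ligament values share that reference, so their sizes depend on it as well. Of the 5 pathway genes, 4 passed the test in perichondrial cells, where 58.8% of all genes did, and 3 in tendon or ligament cells, where 64.4% did.

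Npr2, the signaling receptor, was present throughout the cartilage and fell across the named classes from resting to prehypertrophic cells. Its level was 60.4 and 72.02 in the WT pups and 67.4, 50.7 and 62.4 in the mutant pups in articular chondrocytes, the cells of the joint surface. Resting chondrocytes had 46.8 and 53.1 in the WT pups and 47.5, 40.7 and 51.7 in the mutant pups. Proliferating chondrocytes, which form the columns, had 36.1 and 37.01 in the WT pups and 32.99, 28.2 and 37.04 in the mutant pups, and prehypertrophic cells 25.7 and 24.3 in the WT pups and 23.2, 21.5 and 23.98 in the mutant pups. Among these named classes the order in every pup was articular, resting, proliferating, prehypertrophic. The unnamed clusters led by Bmp7 and by Notum, whose markers scored best as proliferating, had more Npr2 than each of them, pooled. The ranges of articular and resting cells overlapped across pups, those of resting and proliferating cells did not, and neither did those of proliferating and prehypertrophic cells. Red cells had 23.5 to 43.9, which overlapped the resting, proliferating and prehypertrophic ranges. Perichondrial (41.98 to 56.1), tendon or ligament (35.6 to 45.6) and synovial or fibroblast-like cells (41.4 to 51.8) overlapped resting chondrocytes. Pericytes were at 14.8 and macrophages at 9.31, pooled over pups.

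The fall of Npr2 between the named classes held in the test. Relative to resting cells Npr2 was lower in proliferating (log2 fold change -0.70, SE 0.05, adjusted p = 6.2e-14) and in prehypertrophic chondrocytes (log2 fold change -1.12, SE 0.06, adjusted p = 1.4e-17), and it was lower in prehypertrophic than in proliferating cells (log2 fold change -0.42, SE 0.06, adjusted p = 9.3e-08). It was slightly higher in articular cells (log2 fold change 0.17, SE 0.05, adjusted p = 0.0044) and slightly lower in tendon or ligament cells (log2 fold change -0.21, SE 0.05, adjusted p = 2.9e-04). Both of these small differences lost the call under other settings. In perichondrial cells Npr2 did not pass the test (log2 fold change -0.01, SE 0.05). At 3000 UMIs per cell, an Npr2 UMI was found in 16.96 ± 1.74% of articular, 13.6 ± 1.24% of resting, 10.6 ± 1.25% of proliferating and 6.84 ± 0.585% of prehypertrophic cells (mean ± SD, n = 5), against 2.79 ± 0.585% of macrophages. Of the 5 pathway genes 3 passed in articular cells, where 45.4% of all genes did.

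A small unnamed cluster of 175 cells had the highest Npr2 of all. It was led by Msmp, Stc1 and Bpifb1, and Npr2 was at 161 and 319 in the WT pups and 268, 192 and 330.0 in the mutant pups. In each pup that was above the level of every other cluster's pooled value, of which the next were 77.2 and 77.1 in the clusters led by Bmp7 and by Notum. The 175 cells held 0.752% of Npr2 UMIs, and 60% of them had at least 1. Clustering at a finer resolution kept a cluster with the same leading genes, now 201 cells, at 249. At a coarser resolution it did not stand alone, and Msmp and Stc1 were among the leading genes of an articular cluster of 3939 cells.

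Npr3, the clearance receptor, was the rarest of the 5, with 1205 UMIs in 0.948% of cells. Its level was below 1 CPM in resting, proliferating and articular chondrocytes, pooled 0.414, 0.372 and 0.530, as in macrophages (0.490). Vessel cells were above that in every pup: pericytes had 7.55 and 11.1 in the WT pups and 13.97, 34.2 and 3.45 in the mutant pups, and endothelial cells 12.1 and 17.8 in the WT pups and 10.3, 11.9 and 6.89 in the mutant pups. These came from 105 UMIs in pericytes and 59 in endothelial cells over all pups. Mutant pup 3, the lowest in both, had 40 pericytes and 38 endothelial cells, so its values rest on very few UMIs. The perichondrial cluster led by Igfbp3, the one that also held most of the perichondrial Nppc, had 10.8 and 10.6 in the WT pups and 10.4, 16.8 and 14.98 in the mutant pups. It held 22.2% of Npr3 UMIs, the synovial or fibroblast-like cluster 16.4% and the prehypertrophic cluster 16.8%. Schwann cells, the sheath cells of nerves, had the highest pooled level, 41.6, from 29 UMIs in 106 cells, with 42.5 and 54.2 in the WT pups and 49.9, 0 and 0 in the mutant pups. The WT pups had 5 and 25 Schwann cells and the mutant pups 55, 13 and 8.

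Among the named chondrocyte classes Npr3 was highest in the prehypertrophic cluster and differed widely between pups, at 0.489 and 5.30 in the WT pups and 8.34, 3.88 and 3.38 in the mutant pups. With finer clusters, given below, Npr3 was high in the Col10a1-led cells and stayed near the macrophage level in the Smpd3-led cells. Relative to resting cells it was higher in perichondrial (log2 fold change 3.74, SE 0.35, adjusted p = 3.8e-10) and prehypertrophic cells (log2 fold change 3.19, SE 0.38, adjusted p = 1.7e-08), and it was higher in prehypertrophic than in proliferating cells (log2 fold change 3.59, SE 0.35, adjusted p = 7.3e-10). Both prehypertrophic calls were lost with finer clusters (0.54 and 0.72, log2), in which the Col10a1 cells were left unnamed. Articular, proliferating and tendon or ligament cells did not pass the test against resting cells (log2 fold changes 0.08, -0.40 and 0.88). As a share of receptor UMIs (Npr3 of Npr2 and Npr3), Npr3 made up 42.7 ± 21.6% in pericytes, 40.1 ± 7.12% in endothelial cells, 14.8 ± 8.94% in prehypertrophic cells, 11.3 ± 3.79% in perichondrial cells and 0.889 ± 0.464% in resting chondrocytes (mean ± SD, n = 5). With the macrophage level subtracted it was 63.0 ± 20.1% in pericytes and 63.7 ± 23.6% in endothelial cells. The endothelial mean includes 100% in mutant pup 3, whose endothelial Npr2 (10.3 CPM) was below its macrophage level (12.5 CPM). No Npr2 was left there after the subtraction, so that share says nothing about the ratio. In both classes some pups still had less Npr3 than Npr2, so the means do not show an excess of Npr3. Schwann cells had 29 Npr3 and 31 Npr2 UMIs in all.

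Among the kinases Prkg2 separated the named resting, proliferating and prehypertrophic classes. It was at 420.1 and 354 in the WT pups and 383, 356 and 354 in the mutant pups in prehypertrophic cells. Proliferating chondrocytes had 114 and 90.8 in the WT pups and 128, 126 and 122 in the mutant pups, and resting chondrocytes 8.80 and 5.50 in the WT pups and 3.82, 5.69 and 10.2 in the mutant pups. These 3 ranges did not overlap. Macrophages had 1.92 to 10.02, so resting (3.82 to 10.2), articular (3.35 to 7.17) and perichondrial values (pooled 3.61) were not above the background. Red cells had 33.2, pooled, in libraries where every cell type also carried Col2a1.

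Relative to resting cells Prkg2 was higher in proliferating (log2 fold change 3.87, SE 0.22, adjusted p = 9.1e-13) and prehypertrophic chondrocytes (log2 fold change 5.65, SE 0.23, adjusted p = 1.1e-15). The proliferating value was 2.50 with coarser and 1.58 with finer clusters (log2), and kept its call. Prkg2 was higher again in prehypertrophic than in proliferating cells (log2 fold change 1.78, SE 0.18, adjusted p = 1.2e-08). With finer clusters the H2-DMa cells took the prehypertrophic name. Both prehypertrophic values then compared other cells, so their sizes depend on the clustering too. Of the 5 genes 4 passed against resting cells in each of these classes, where 66.2% and 73.5% of all genes did, and 4 passed between the classes, where 61.7% did. After thinning to 3000 UMIs, 63.2 ± 6.52% of prehypertrophic, 18.7 ± 2.36% of proliferating and 1.49 ± 0.5999% of resting cells had a Prkg2 UMI, against 0.869 ± 0.634% of macrophages. Unthinned, the shares were 98.7% and 45.2% in prehypertrophic and proliferating cells.

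The proliferating class was mixed for Prkg2. Of its 4 clusters, the one led by H2-DMa and Car12 had 174 and 133 in the WT pups and 202, 200.5 and 187 in the mutant pups, and the cycling cluster led by Ccnb1 and Pbk had 101 and 71.1 in the WT pups and 138, 134 and 117 in the mutant pups. The other clusters, led by Top2a and Prc1 and by Mt2 and Chil1, were at 9.18 and 9.83, near the macrophage level (7.35). Both the Ccnb1 and the Top2a cluster were led by genes of cell division, and of them the first had high Prkg2. Prkg2 was also high in 2 unnamed clusters, at 83.7 in the cluster led by Bmp7 and Notum and 76.1 in that led by Sfrp5 and Gm39529. Other unnamed clusters, led by Chil1 (5075 cells) and by Notum and Matn4 (4791 cells), also scored best as proliferating. Over all unnamed cells Prkg2 was at 31.2, pooled. High Prkg2 thus marked part of the cells that scored as proliferating. The median depth was 17347 UMIs per cell in the H2-DMa cluster and 23655 in the Ccnb1 cluster against 10327 and 8282 in the other 2, and CPM is scaled to depth.

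Prkg1 followed another course, high at the joint surface and low in the columns. Pericytes, contractile cells around vessels, had the most, 349 and 410.2 in the WT pups and 382, 338 and 408 in the mutant pups. Among the named chondrocyte classes the articular cells led with 251 and 266 in the WT pups and 239.6, 241 and 316 in the mutant pups, and resting cells had 168 and 171 in the WT pups and 168, 172 and 212 in the mutant pups. Proliferating cells had 78.3 and 72.95 in the WT pups and 88.2, 85.98 and 115 in the mutant pups, in each pup less than that pup's resting cells, and prehypertrophic cells were back at 184 and 217 in the WT pups and 217, 202 and 229 in the mutant pups. Macrophages had 42.2 to 69.3. The ranges of articular and prehypertrophic cells did not overlap, those of prehypertrophic and resting cells did, and the proliferating range lay above the macrophage range. Other blood cells had more than macrophages, with 85.8 to 167 in red cells and 59.2 to 99.5 in granulocytes, and both overlapped the proliferating range.

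Relative to resting cells, Prkg1 was lower in proliferating (log2 fold change -1.24, SE 0.07, adjusted p = 4.9e-15), tendon or ligament (log2 fold change -0.50, SE 0.07, adjusted p = 4.0e-07) and perichondrial cells (log2 fold change -0.33, SE 0.07, adjusted p = 1.9e-04) and higher in articular cells (log2 fold change 0.35, SE 0.07, adjusted p = 1.3e-04). It did not pass in prehypertrophic cells (log2 fold change 0.13, SE 0.07, adjusted p = 0.085), and it was higher there than in proliferating cells (log2 fold change 1.37, SE 0.07, adjusted p = 9.3e-16). With finer clusters, where the H2-DMa cells took the prehypertrophic name and the Col10a1 cells had none, this last difference reversed to -0.34 (log2). In the Prkg2-rich proliferating clusters Prkg1 was at 65.4 (led by H2-DMa) and 45.5 (led by Ccnb1), about the macrophage level of 59.9. Prkg2 made up 56.99 ± 3.51% of the UMIs of both kinases in proliferating and 63.96 ± 3.39% in prehypertrophic cells, against 3.62 ± 1.14% in resting and 1.86 ± 0.647% in articular cells (mean ± SD, n = 5 pups). In macrophages the share was 8.67 ± 4.69%. With the macrophage level subtracted the means of the first pair changed order, to 80.3 ± 11.9% in proliferating and 70.5 ± 3.87% in prehypertrophic cells. In mutant pup 3 the order did not change (62.3% and 65.4%). With finer clusters the proliferating share was 22.6%, as the H2-DMa cells then left that class. The share compares UMIs of 2 genes and not molecules, since transcripts can differ in how well they are captured.

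**Figure D2:**
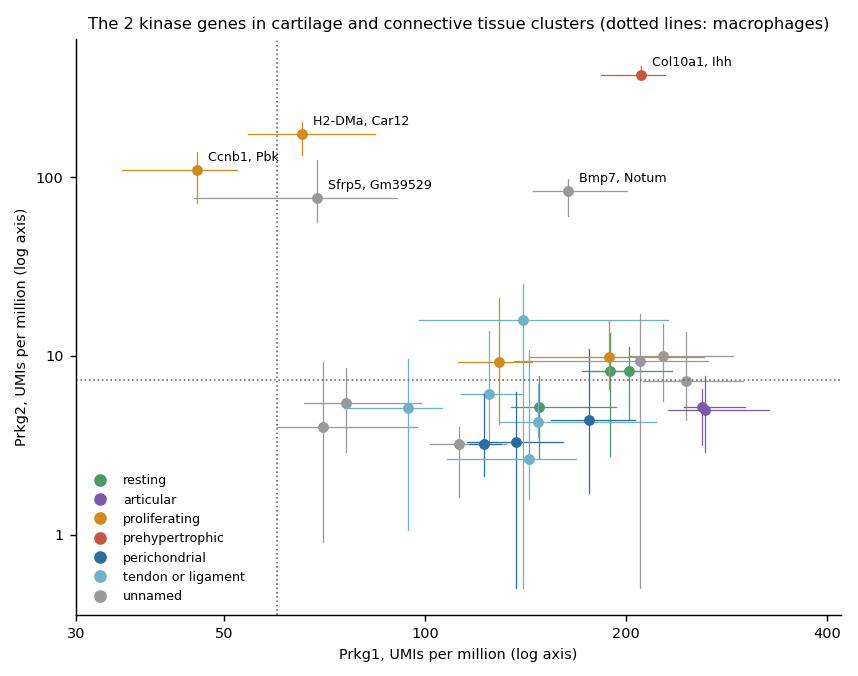
Prkg1 against Prkg2 (CPM, log axes) with 1 point per cluster of cartilage and connective tissue, coloured by class, lines from the lowest to the highest pup and dotted lines at the macrophage levels. The prehypertrophic cluster has both kinases (211 and 374), while the proliferating clusters led by H2-DMa and Ccnb1 have much Prkg2 (175 and 109) at a Prkg1 level near that of macrophages.

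Finer clusters split the cells around the prehypertrophic cluster and are given as a description, with no test. From a clustering with 53 clusters, those led by H2-DMa and Car12 (3058 cells), by Smpd3, Ihh and Panx3 (1121 cells) and by Col10a1 and Ihh (297 cells) are given. Their order was chosen, and no developmental path between them was computed. The marker lists gave the name hypertrophic to another of the 53 clusters, led by Mmp13, Mmp9 and Ostn (1596 cells), in which Prkg2 was at 4.87, Prkg1 at 83.3, Npr2 at 36.6, Npr3 at 1.12 and Nppc at 7.24, pooled. Its markers scored best as osteoblast lineage, a name turned down because markers of another class were among its leading genes. Col10a1 was not among those, so its values are not those of the Col10a1-rich cells. Col10a1, the collagen of hypertrophic cartilage, was at 2059 in the Smpd3 cluster and 31511 in the Col10a1 cluster. Prkg2 was at 202 and 169 in the WT pups and 225, 213 and 211 in the mutant pups in the H2-DMa cluster. It was at 392 and 345 in the WT pups and 385, 331 and 343 in the mutant pups in the Smpd3 cluster and 537 and 390.3 in the WT pups and 377, 447 and 390.4 in the mutant pups in the Col10a1 cluster, so the main step lay between the H2-DMa and the Smpd3 cells, and the last pair overlapped across pups.

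Prkg1 was higher in each next cluster of the same order. It was at 57.6 and 56.7 in the WT pups and 70.6, 72.03 and 82.3 in the mutant pups in the H2-DMa cluster. The Smpd3 cluster had 155 and 179 in the WT pups and 177, 169 and 192 in the mutant pups, and the Col10a1 cluster 302 and 373 in the WT pups and 367, 326 and 333 in the mutant pups. The 3 ranges were separate, and the last overlapped that of pericytes. Npr3 was low in the first pair of these clusters and higher in the Col10a1 cluster, where 4 of 5 pups had more than 1 UMI. It was at 0.454, pooled, in the H2-DMa cluster and at 0.404 and 1.08 in the WT pups and 0.397, 1.80 and 0 in the mutant pups in the Smpd3 cluster. In the Col10a1 cluster it was at 0.842 and 22.5 in the WT pups and 37.6, 11.47 and 13.2 in the mutant pups, from 179 UMIs. The WT pup at 0.842 had 38 cells in that cluster, against 29 to 104 in the other pups. Npr2 was at 28.4, 21.3 and 33.03, pooled, along the 3 clusters, so here it did not keep falling.

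**Figure D3:**
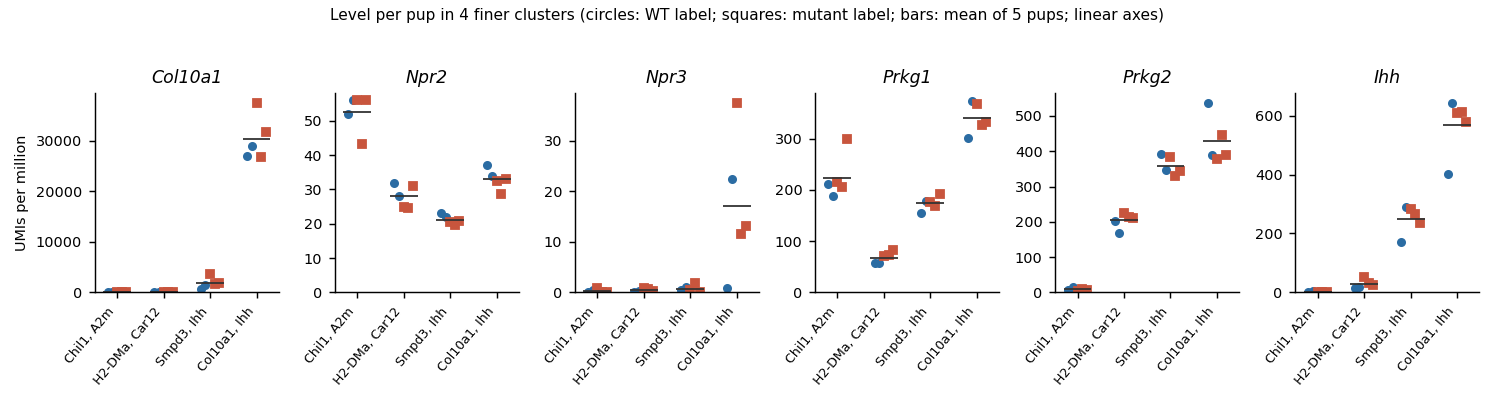
Levels of 4 pathway genes and of the stage markers Col10a1 and Ihh (CPM, linear axes) in 4 finer clusters, led by Chil1, by H2-DMa, by Smpd3 and by Col10a1, with 1 point per pup, circles for WT, squares for mutant and bars at the mean of 5 pups. From the H2-DMa to the Col10a1 cluster Prkg1 rises, Prkg2 rises mainly up to the Smpd3 cluster, and Npr3 appears in the Col10a1 cluster (pooled 21.9).

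The genes whose levels over the 37 clusters were most like each member were found by Pearson's r of log2(CPM + 5), a description in which all clusters share the same 5 libraries and differ in depth. For Prkg2 these were Smim31 (r = 0.93), Nos1 (r = 0.92), Batf3 (r = 0.90). Nos1 makes nitric oxide, the signal that drives the soluble cGMP-making enzymes. For Nppc they were Msc (r = 0.85), Lix1 (r = 0.82), Vstm2a (r = 0.80), of which Msc encodes a transcription factor of muscle precursors and also led the muscle cluster. Npr2 was followed by Reck (r = 0.89), Pam (r = 0.86), Pura (r = 0.86), Npr3 by Peg13 (r = 0.81), A830082K12Rik (r = 0.80), Prss12 (r = 0.80) and Prkg1 by Abtb2 (r = 0.81), Abat (r = 0.79), Arhgef17 (r = 0.78). Reck encodes a membrane-bound inhibitor of matrix-degrading proteases, and Pam an enzyme that amidates peptide hormones.

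The wider pathway was read from a list of 58 genes, the 5 included, of which 57 were in the files and 54 could be tested between classes. Relative to resting cells, 19 higher and 25 lower passed in proliferating cells (66.2% of all genes passed there), 22 higher and 23 lower in prehypertrophic cells (73.5%), 22 higher and 14 lower in perichondrial cells (58.8%), 16 higher and 18 lower in articular cells (45.4%) and 25 higher and 14 lower in tendon or ligament cells (64.4%). The median log2 fold change of the list was -0.18 in proliferating cells and 0.09 in prehypertrophic cells, against -0.03 and -0.05 over all genes, so the list did not move as a block.

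Other makers of cGMP had separate homes. Nos1 rose with Prkg2, at 43.9 against 2.81 CPM, log2 fold change 3.74, SE 0.10, in proliferating cells and at 121 against 2.81 CPM, log2 fold change 5.31, SE 0.10, in prehypertrophic cells. The soluble guanylyl cyclase subunits Gucy1a1 and Gucy1b1, which respond to nitric oxide, were highest in pericytes (245 and 196), as was Pde5a, which breaks down cGMP (223). Npr1, the receptor of the Nppb peptide, and Nos3 were highest in endothelial cells (123 and 95.9). Ostn, a ligand of NPR3, was highest in the unnamed cluster led by Ibsp and Mmp13 (287).

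The arm that CNP signaling opposes changed member by member between stages. In prehypertrophic cells Fgfr1 (47.4 against 298 CPM, log2 fold change -2.80, SE 0.09), Spry2 (29.3 against 100.5 CPM, log2 fold change -1.87, SE 0.09) and Dusp6 (32.2 against 101 CPM, log2 fold change -1.74, SE 0.16), an FGF receptor and 2 feedback inhibitors of FGF signaling, were lower than in resting cells. Fgfr3, the receptor whose signaling holds back bone growth, was higher (log2 fold change 2.67, SE 0.14). Of the 13 genes of the FGF and MAP kinase arm 6 were higher and 7 lower in prehypertrophic cells, and 5 were higher and 8 lower in proliferating cells, where 73.5% and 66.2% of all genes passed in either direction. The 4 chondrocyte targets on the list all rose in both classes, where 35.3% (prehypertrophic) and 31.2% (proliferating) of all genes rose. Among them Mef2c, which promotes hypertrophy, was at 850.0 against 91.9 CPM, log2 fold change 3.08, SE 0.12, in prehypertrophic cells and Runx2 at 211 against 43.7 CPM, log2 fold change 2.07, SE 0.14, in proliferating cells. Of 10 tested genes of cGMP phosphodiesterases (Pde6d, which binds prenyl groups, included), 7 were lower and 1 higher in prehypertrophic cells, where 38.3% of all genes were lower and 35.3% higher.

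In perichondrial cells Mme, which encodes neprilysin, an enzyme that degrades natriuretic peptides, rose with Nppc and Npr3 (79.8 against 12.9 CPM, log2 fold change 2.62, SE 0.14). Runx2 was higher there as well (137 against 43.7 CPM, log2 fold change 1.61, SE 0.14), so its rise was not confined to the chondrocyte classes. Rgs2, a kinase substrate that damps G protein signaling, was higher too (72.6 against 29.2 CPM, log2 fold change 1.26, SE 0.22), while Fgfr3 (24.2 against 128 CPM, log2 fold change -2.49, SE 0.15), Sox9 (460.5 against 1611 CPM, log2 fold change -1.87, SE 0.06) and Furin, the protease that cuts the Nppc precursor (72.7 against 124 CPM, log2 fold change -0.81, SE 0.04), were lower. Tendon or ligament cells had the same direction for Mme (44.6 against 12.9 CPM, log2 fold change 1.78, SE 0.14) and Furin (63.5 against 124 CPM, log2 fold change -1.01, SE 0.04). In articular cells Fgf18 was higher (59.5 against 15.98 CPM, log2 fold change 1.68, SE 0.13) and Pde3a lower (31.8 against 48.4 CPM, log2 fold change -0.82, SE 0.11). All of these passed edgeR's quasi-likelihood test with an adjusted p under 0.05.

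The study's main contrast was mutant against WT, and no member of the pathway passed the test for it. Over all cells, where 0% of 21024 genes passed, Prkg2 had 52.4 and 53.6 CPM in the WT pups and 60.7, 53.6 and 54.7 in the mutant pups (log2 fold change 0.19, SE 0.07, adjusted p = 0.84, edgeR). Prkg1 had 141 and 138 against 141, 141 and 177, so for both kinases the mutant pups were above the WT pups, some by less than 1 CPM. Npr2 had 44.9 and 46.4 against 44.3, 37.9 and 50.2, so the groups overlapped. In the 12 cell classes tested, 0 of the 2 to 5 members that could be tested passed, and over all genes 0% passed except in endothelial cells (0.0333%), macrophages (0.0582%) and synovial or fibroblast-like cells (0.0177%). An unadjusted p under 0.05 was reached by 1 member over all cells, by Prkg1 and Prkg2 in proliferating cells, by Npr2 and Prkg1 in endothelial cells, and by 1 member each in articular cells, perichondrial cells and granulocytes. Of all genes 5.56% did so over all cells, 6.86% in proliferating, 4.59% in endothelial, 6.74% in articular and 8.33% in perichondrial cells and 2.91% in granulocytes. DESeq2, run on all cells and 6 classes, called no member either. Over all genes it called 48 over all cells, 33 in proliferating and 22 in perichondrial cells, and 1 to 4 in the others. Both WT pups had the Xist and Ddx3y pattern that of the mutant pups only pup 3 had, and with Xist as a covariate still no member passed.

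The filter of at most 6000 genes per cell bore on this contrast. It took out 142 and 181 cells of the WT pups and 23, 6 and 12 cells of the mutant pups, and those cells were rich in Prkg2, with 237 and 235 CPM in the WT pups and 264, 218 and 175 in the mutant pups. With them put back, a choice made after seeing the data, Prkg2 over all cells was at 59.4 and 61.3 against 61.9, 53.9 and 55.2, so the groups overlapped (log2 fold change 0.02, SE 0.07, adjusted p = 0.96). In the removed cells Ihh was at 96.9 and 233 CPM in the WT pups and 188, 39.7 and 32.5 in the mutant pups. The kept cells had 10.4 and 27.3 against 34.3, 19.3 and 12.3. Col10a1 in the removed cells was at 1625 and 4026 against 8309, 115 and 207. In the kept cells it was at 224 and 478 against 918, 327 and 255. The WT libraries were also deeper, with medians of 9261 and 8521 UMIs per cell against 6000 to 7016.

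**Figure D4:**
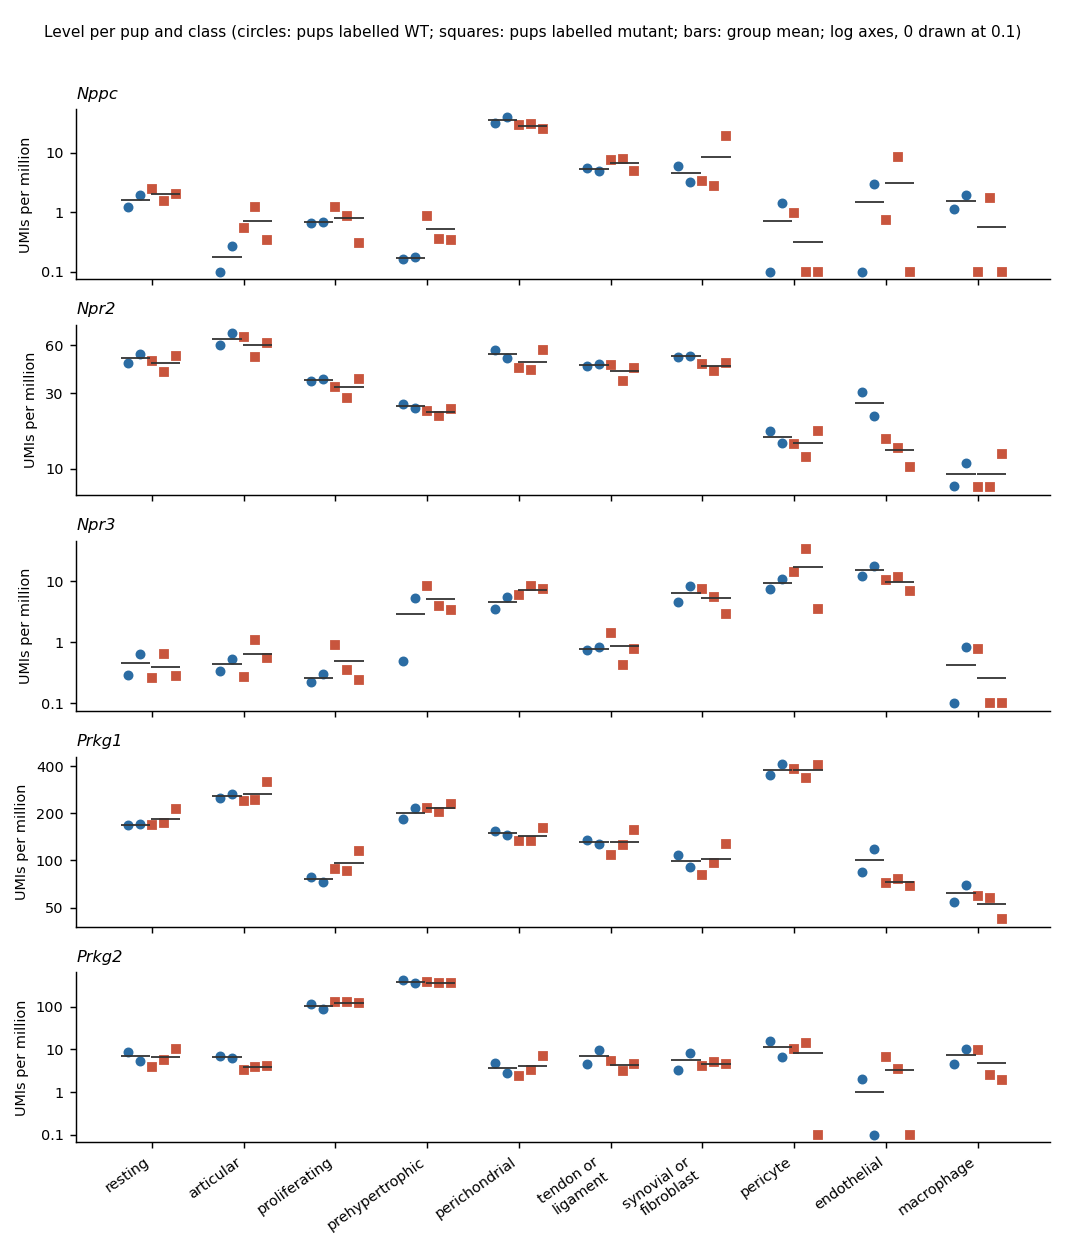
Levels of the 5 genes in each of the 5 pups (CPM, log axes, circles for WT, squares for mutant, bars at the group mean, 0 drawn at 0.1) by cell class, with macrophages, the background, at the right. Prkg2 in prehypertrophic cells lies between 354 and 420.1 in all 5 pups, far from the resting values of 3.82 to 10.2, whatever the label.

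Some members with at least 50 UMIs had WT and mutant pups apart without passing: 3 in endothelial cells, 2 each in all cells, proliferating and perichondrial cells, and 1 each in articular and prehypertrophic cells, granulocytes and synovial or fibroblast-like cells. Prkg2 in proliferating chondrocytes, 114 and 90.8 against 128, 126 and 122, was higher in all 3 mutant than in both WT pups but did not pass (log2 fold change 0.34, SE 0.12, adjusted p = 0.72). Prkg1 in the same cells was likewise separate and did not pass (log2 fold change 0.41, SE 0.14, adjusted p = 0.72). The Prkg2 value was 0.56 without WT pup 1 and 0.16 without WT pup 2, and the Prkg1 value was 0.26 without mutant pup 3 (log2). The Prkg2-rich cells that the upper limit on genes per cell took out held 1552 and 1808 Prkg2 UMIs in the WT pups. In the mutant pups they held 247, 55 and 86. They were given no class, so the differences in proliferating and in prehypertrophic cells were not tested with them put back. Of all genes with at least 50 UMIs, 25.5% had WT and mutant pups that did not overlap in this class, and 23.8% did over all cells, 20.3% in articular, 19.7% in resting, 20.2% in endothelial, 29.5% in perichondrial, 19.1% in prehypertrophic cells, 17.3% in granulocytes and 19.9% in synovial or fibroblast-like cells, so separate groups were common. In prehypertrophic cells Prkg2 overlapped between the labels (log2 fold change -0.06, SE 0.11, adjusted p = 1.00). In articular cells, where it was at the macrophage level, its difference had the other sign and did not pass (log2 fold change -0.80, SE 0.23, adjusted p = 0.73).

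The Prkg2-rich clusters and the Igfbp3 perichondrial cluster were also fitted alone, a choice made after seeing the data. In the H2-DMa cluster Prkg2 (log2 fold change 0.42, SE 0.13, adjusted p = 0.78) and Prkg1 (log2 fold change 0.46, SE 0.12, adjusted p = 0.78) were above WT in each mutant pup without passing, where 0% of genes passed and 24.6% had the labels apart. In the Ccnb1 cluster, where 0.0161% of genes passed, Prkg2 had its smallest adjusted p (log2 fold change 0.63, SE 0.16, adjusted p = 0.26). In the Sfrp5 cluster the difference for Prkg2 was of similar size (log2 fold change 0.69, SE 0.22, adjusted p = 0.51), where 27.9% of genes had the labels apart, and in the Bmp7 cluster it was small (log2 fold change 0.15, SE 0.23, adjusted p = 1.00). Nppc in the Igfbp3 perichondrial cluster was lower in all 3 mutant than in both WT pups without passing (log2 fold change -0.55, SE 0.14, adjusted p = 0.33), in a cluster where 27.1% of genes had the labels apart. These clusters make up the classes above, so they are not independent of them. The cluster fits also lack the Prkg2-rich cells removed by the upper limit on genes, and were not repeated with those cells. The share of the proliferating class in the H2-DMa cluster, 47.7% and 50.1% of the WT pups' cells and 39.9%, 38.3% and 43.4% of the mutant pups', moved with the label, and its part in the class level was not tested.

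For the ligand and receptors by class, values are given for perichondrial, chondrocyte and endothelial cells. Nppc was at 32.5 and 40.2 in the WT pups and 29.3, 30.2 and 24.98 in the mutant pups (log2 fold change -0.28, SE 0.14, adjusted p = 0.63). Npr3 there was at 3.51 and 5.55 in the WT pups and 5.95, 8.204 and 7.55 in the mutant pups (log2 fold change 0.73, SE 0.26, adjusted p = 0.55), with mutant pups all above the WT pups, as 29.5% of genes had the labels apart in this class. Without WT pup 1 and without WT pup 2 these values were -0.43 and -0.11 for Nppc and 0.45 and 1.11 for Npr3 (log2). Npr2 differed by -0.10 to -0.03 (log2) in the 4 chondrocyte classes and was called in none of them. As a share of receptor UMIs, Npr3 was at 7.95% in WT and 13.5% in mutant perichondrial cells on average (exact permutation test, 2-sided, p = 0.10, the smallest that 10 groupings allow, adjusted p = 0.87 over 26 shares). In endothelial cells, where Npr2, Npr3 and Prkg1 were each lower in all mutant pups (20.2% of genes had the labels apart), Prkg1 was at 84.00 and 118 in the WT pups and 71.6, 76.3 and 68.9 in the mutant pups (log2 fold change -0.46, SE 0.20, adjusted p = 1.00) and Npr3 differed less relative to its error (log2 fold change -0.54, SE 0.43, adjusted p = 1.00). Npr2 there was at 30.4 and 21.6 in the WT pups and 15.5, 13.6 and 10.3 in the mutant pups (log2 fold change -0.83, SE 0.36, adjusted p = 1.00). The thinned shares of cells gave 60 comparisons, all with an adjusted p of 1.00 by the same exact test.

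**Figure D5:**
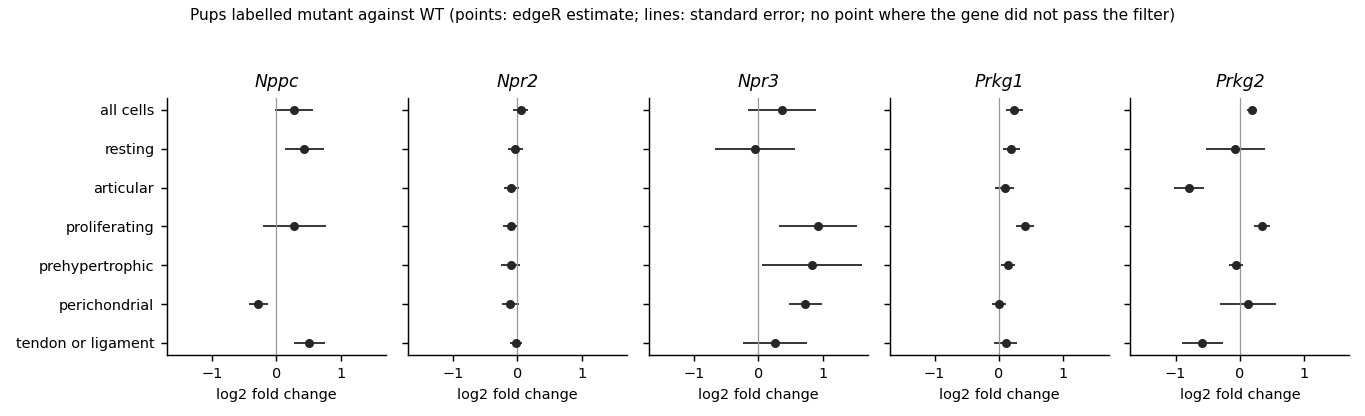
Log2 fold change of mutant against WT pups for each of the 5 genes by cell class, with bars of 1 SE from edgeR's quasi-likelihood fit. The Npr2 estimates in the 4 chondrocyte classes lie between -0.10 and -0.03, and no gene passed an adjusted p of 0.05.

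Whether the genotype difference itself differed between classes was tested by the interaction of label and class. Of 15966 genes 0 passed in any of the 5 class pairs by edgeR, with 286 to 621 at an unadjusted p under 0.05, and so no member did. The member nearest to it was Nppc, whose difference in perichondrial cells minus that in resting cells was -0.76 (log2, SE 0.34, adjusted p = 1.00). The resting level of Nppc was at the macrophage background, so that value sets a perichondrial difference against one between counts near 0.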

How the data were processed

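Growth plate cells of 5 mouse pups, 1 library each, were captured and barcoded on the BD Rhapsody platform and sequenced by the authors on a NovaSeq instrument. The deposited files hold raw UMI counts per gene and cell, made by the authors with the Rhapsody pipeline of the platform's maker. Per the labels the genome build was mm10, and the version of its annotation is not given in the sources used here. UMIs collapse PCR copies, so a count is a captured molecule, and the genes were matched to GENCODE M21 (GRCm38) by symbol for positions and to RefSeq tables for start sites.

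Cells with 200 to 6000 genes and at most 10% mitochondrial UMIs were kept, after the study's methods. Doublets were not called. Residuals of 3000 variable genes (Pearson residuals, theta 100), leaving out the 58 pathway genes, Xist, Tsix and Y-linked genes, were reduced to 50 components and clustered (20 neighbours, leidenalg 0.10.2, resolution 1.5). Clusters took a class from lists of marker genes. The 5 genes, the marker lists and the pathway list were chosen with earlier results of these data known. Levels are CPM, UMIs scaled to a common total, of the pooled cells of a class, and free RNA was read from macrophages. The precision is that of counting and of 5 pups. Cells kept per pup were 13814 to 19133, from files with 117746735 to 183322632 UMIs.

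UMI counts were summed per pup and class and tested with edgeR 4.0.16 (R 4.3.3; TMM, quasi-likelihood F-test, robust), with Benjamini-Hochberg adjustment over all genes of a contrast and a threshold of 0.05. Genotype was fitted per class with at least 20 cells in every pup, and classes in 1 fit with the pup as a block, since they come from the same animals. DESeq2 1.42.0 was an alternative. Shares of cells were computed after thinning each cell to 3000 UMIs, leaving out 2303 shallower cells, and shares were compared by an exact permutation test over the 10 groupings of 2 and 3 pups. The pups were littermates, so genotype p-values set a difference against the spread between related animals. Class p-values, with the pup as a block, set it against how far class differences varied from pup to pup. The members were named throughout. Of the pathway list, genes were named from the 3 per contrast and direction with the largest change past the threshold and a mean of at least 20 CPM. Not all of those genes are given for each contrast. For each member the 3 genes most alike over clusters were named. Other genes with values were chosen after their values were seen. On simulated counts 200 genes above 20 CPM on average were changed, each by 1 on the log2 scale. The genotype test recovered 194 in resting, 197 in proliferating and 196 in perichondrial cells, where 7.62%, 9.63% and 10.9% of its calls were false. The class test of proliferating against resting cells recovered 198 with 4.81% false. Each gene was drawn on its own at its fitted spread, from the same mean profile in every sample apart from the changes put in. Differences in sex and in cell composition between pups were not simulated as such. The recovery may therefore not hold for the real contrast of 2 and 3 pups. Pooled, Npr3 was below 20 CPM in every class tested for genotype, as was Nppc outside perichondrial cells. Smaller changes were not simulated either, so the recovery does not speak for such values.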

Additional observations from a re-analysis of the deposited data

Results flagged for a closer look

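A few classes were too small in some pup for a test, and in these some members stood above the highest macrophage pup. Nppc in skeletal muscle cells was at 363 CPM, pooled over pups (882 UMIs in 411 cells), against 1.95 in the highest macrophage pup. Msc, the gene most like Nppc over clusters, also led the muscle cluster. Npr3 in Schwann cells, the sheath cells of nerves, was at 41.6 CPM (29 UMIs in 106 cells), against 0.835 in the highest macrophage pup. It was at 42.5 and 54.2 in the WT pups and at 49.9 in mutant pup 1, and the other mutant pups had none. Those values came from 5, 25 and 55 cells, and the pups with none had 13 and 8. Npr2 in the same Schwann cells was at 44.4 CPM (31 UMIs), against 12.5 in the highest macrophage pup. These are values of classes outside the comparisons above, and no difference between the labels was tested for them.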

How the results depend on the processing

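Against resting cells, over the settings that kept all pups, the number of members called was 2 to 3 in articular, 3 to 4 in perichondrial, 3 to 5 in prehypertrophic, 3 to 4 in proliferating and 2 to 4 in tendon or ligament cells, and it was 3 to 4 in prehypertrophic against proliferating cells. Leaving out each pup in turn gave 3 to 4 members in articular, perichondrial and tendon or ligament cells, 4 to 5 in prehypertrophic cells and 4 in proliferating cells and between the last 2. For genotype every alternative gave 0 members, while over all genes DESeq2 called 48 over all cells where edgeR called 0. The fit with no replicate block called 2 members in articular cells, losing Npr2 (adjusted p = 0.073), and the same number as with the block elsewhere, and no paired analysis of genotype was possible because replicate numbers name different pups in the 2 groups. Without WT replicate 1, Prkg2 in prehypertrophic cells changed from -0.06 to 0.10 by genotype (log2, -0.20 to 0.10 over the pups left out). At a resolution of 2.5 it was 0.14, where the H2-DMa cells took the prehypertrophic name and the Col10a1 cells were unnamed. There Nppc relative to resting cells became 0.19 in articular, 0.23 in prehypertrophic and 0.72 in proliferating cells, and Prkg1 in prehypertrophic against proliferating cells became -0.34. Npr3 in prehypertrophic cells lost its calls there, and Npr2 in tendon or ligament cells lost its call at a resolution of 0.8, where no class was prehypertrophic.

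Shares of cells with a UMI moved with depth. Not thinned and at 1500 UMIs they were 98.7% and 40.9% for Prkg2 in prehypertrophic cells, 45.2% and 10.6% for Prkg2 in proliferating cells, 10.3% and 3.54% for Nppc in perichondrial cells, and 31.4% and 7.30% for Npr2 in resting cells. With the macrophage level subtracted, the mean Prkg2 share of kinase UMIs was 2.19% in resting, 80.3% in proliferating and 70.5% in prehypertrophic cells. The means of the last pair thus changed order, though not the values of mutant pup 3. It was 28.3% in proliferating cells at a resolution of 0.8, and 22.6%, 5.57% and 71.4% in proliferating, resting and prehypertrophic cells at 2.5, where the Npr3 share of receptor UMIs in prehypertrophic cells was 2.20%. Of the 3 genes most like Nppc 1 stayed first among 3 with log2(CPM + 1), and of those most like Npr2 1 with log2(CPM + 20). The numbers of pups and of muscle, Schwann and Col10a1-rich cells set the precision.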
